A study of Saccharomyces cerevisiae with 24 samples.

Results

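The 9 genes described here encode the yeast proteins that deal with an mRNA on which ribosomes have stalled, and the Ski complex that feeds such an mRNA to the exosome. They are ASC1 (YMR116C), DOM34 (YNL001W), HBS1 (YKR084C), CUE2 (YKL090W), XRN1 (YGL173C), SKI2 (YLR398C), SKI3 (YPR189W), SKI7 (YOR076C) and SKI8 (YGL213C). The 9 were chosen by systematic name, not by their values, from 5912 quantified genes, though earlier results of these data were known. All 9 passed the filter on low counts, as did 5824 genes in all.

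Messenger RNA was sequenced from haploid BY4741 MATa budding yeast grown in YPD, a rich medium, to an optical density of about 0.6. There were 4 strains, a wild type strain and deletions of GCN2 (gcn2Δ::KAN), GCN4 (gcn4Δ::KAN) and MBF1 (mbf1Δ::NAT), each either left untreated or exposed for 1 h to 0.1% methyl methanesulfonate (MMS), which alkylates RNA as well as DNA. Each of the 8 groups had 3 biological replicates, 24 libraries in all, and each deletion is represented by its labelled genotype with no second isolate named. The series asked how the response to MMS depends on genotype. Gcn2 is the kinase that phosphorylates the initiation factor eIF2, Gcn4 the transcription factor translated in response, and Mbf1 a coactivator that binds collided ribosomes.

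Total counts ran from 13518115 to 28366473 per library. In their own deletion strain, GCN2 lay between 0.497 and 1.22 CPM (counts scaled to a common library total), MBF1 between 0.0731 and 2.82, and GCN4 between 22.2 and 30.9, each below its lowest value in the other strains (48.9, 243 and 326). The MATa transcripts MFA1, MFA2, STE2 and BAR1 were at 75.2 or above in every library. Of the MATalpha transcripts, MF(ALPHA)1 was at 0.537 or below, MF(ALPHA)2 at 2.28 to 8.11 and STE3 at 3.56 to 11.9. Of the genes listed as deleted in BY4741, MET17 and URA3 were at 0 and LEU2 at 1.1 or below, but HIS3 was at 33.1 to 170. A set of 5 genes of the ribosomal RNA locus took 6.8% to 17.7% of counts in the wild type, gcn2Δ and mbf1Δ libraries and 0.336% to 1.48% in the gcn4Δ libraries. Untreated wild type replicate 3 stood apart from the other untreated wild type libraries, with 10.6% against 15.6% and 16.9%. Without it, the number of all genes called in untreated gcn2Δ against untreated wild type went from 25 to 1156, and results that rest on it are given both ways.

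When a ribosome stalls and the next one runs into it, the collided pair is recognised through the small subunits, where Asc1 (RACK1 in mammals) sits. In no-go decay the endonuclease Cue2 cuts the mRNA near the collision, Dom34 (Pelota) and the GTPase Hbs1 split the stalled ribosome, Xrn1 degrades the 3′ fragment from its 5′ end, and the Ski complex threads the 5′ fragment into the cytoplasmic exosome. The Ski complex consists of the helicase Ski2, the scaffold Ski3 and the WD-repeat protein Ski8, and Ski7, a relative of Hbs1, bridges it to the exosome.

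The region around the start codon is shown for 3 of the genes in which a searched motif was found, chosen because they moved in different ways: DOM34, which fell, CUE2, which rose, and SKI2, whose response differed between strains. Each window runs from 250 bases before to 50 bases after the first base of the coding sequence, 300 bases in all, 5′ to 3′ on the strand of the gene, read from the RefSeq genome of build R64. Capitals mark motif matches on either strand: GATGAG (the PAC core), AAAATTTT (the RRPE core) and AGGGG (the stress response element). They lie on chromosome XIV for DOM34 (chrXIV:627206-627505, plus strand), XI for CUE2 (chrXI:271628-271927, plus strand) and XII for SKI2 (chrXII:918970-919269, minus strand).
DOM34: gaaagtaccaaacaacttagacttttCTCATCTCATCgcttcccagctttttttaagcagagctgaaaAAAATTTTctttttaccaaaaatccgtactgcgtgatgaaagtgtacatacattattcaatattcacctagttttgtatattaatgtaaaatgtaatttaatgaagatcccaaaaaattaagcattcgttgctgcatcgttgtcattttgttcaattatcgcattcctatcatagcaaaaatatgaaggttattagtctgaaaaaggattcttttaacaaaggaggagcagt
CUE2: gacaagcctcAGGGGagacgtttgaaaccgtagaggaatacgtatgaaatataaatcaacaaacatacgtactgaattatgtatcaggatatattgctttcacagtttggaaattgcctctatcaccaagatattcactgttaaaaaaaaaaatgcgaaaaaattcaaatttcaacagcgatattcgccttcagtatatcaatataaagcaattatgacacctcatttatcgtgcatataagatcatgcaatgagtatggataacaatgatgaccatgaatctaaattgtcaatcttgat
SKI2: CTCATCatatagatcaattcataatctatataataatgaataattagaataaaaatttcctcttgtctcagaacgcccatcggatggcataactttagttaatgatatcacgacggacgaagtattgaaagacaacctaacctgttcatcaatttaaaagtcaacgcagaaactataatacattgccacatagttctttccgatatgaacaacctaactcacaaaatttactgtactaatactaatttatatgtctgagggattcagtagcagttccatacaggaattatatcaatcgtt

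The motifs were searched in the windows of 8 members. The PAC core occurred in the DOM34 and SKI2 windows and in 19.8% of the windows of all 5908 genes with one. DOM34 held it at 2 overlapping places, at -224 and -219 from the first base of the start codon, and SKI2 at -250, the edge of its window. The RRPE core occurred in DOM34 at -182, in XRN1 at 11, which is within the coding sequence, and in 9.17% of all windows. DOM34 was the one of the 8 members examined with both cores, a combination found in 4.45% of windows. The stress response element was found in CUE2 and in 21.9% of windows. The letters of the Gcn4 site (TGACTCA, 2.78% of all windows), the Rpn4 site (GGTGGCAAA, 1.2%), the Rap1 site (ACCCATACA, 0.423%), the heat shock element pair (GAANNTTC, 12%) and the Cbf1 site (CACGTG, 2.96%) are not in any of these 8 windows. The DOM34 window is shared with RLP7, a ribosome biogenesis gene on the other strand whose start codon is 313 bases away.

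The 9 transcripts differed widely in abundance. On the TPM scale, which divides by length, the untreated wild type mean was 3070 ± 340 for ASC1, 115 ± 9.88 for XRN1 and 67.2 ± 10.7 for SKI8 (SD, n = 3, as for all means below). HBS1 (36 ± 4.36) and DOM34 (35.2 ± 6.81), whose products act as a pair, were at the same level within their spread on this scale. That depends on the lengths Salmon estimated: in CPM they were at 91.8 ± 1.41 and 37.6 ± 2.95, with deposited lengths of 2236 and 1561 bases. SKI2 stood at 25.6 ± 4.03, SKI3 at 18.3 ± 2.53, SKI7 at 9.36 ± 2.33 and CUE2 at 8.4 ± 0.878. SKI2 was above SKI3 in every library, whereas SKI7 and CUE2 did not differ beyond their spread.

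MMS changed most of these transcripts in every strain, but so it did most transcripts of the cell. By edgeR's quasi-likelihood test with Benjamini-Hochberg adjustment over all genes, and an adjusted p under 0.05 as the threshold, 8 of 9 were called in wild type, 5 higher and 3 lower, beside 83.1% of all genes tested (42% higher, 41.2% lower). In gcn2Δ 8 were called, 6 higher and 2 lower, beside 81.7% of all genes (41.4% and 40.4%). In gcn4Δ 7 were called, 4 higher and 3 lower, beside 83.3% (40.7% and 42.6%), and in mbf1Δ 9, 7 higher and 2 lower, beside 82.9% (42.7% and 40.1%). In either direction, 88.9% of members were called in wild type and gcn2Δ, 77.8% in gcn4Δ and 100% in mbf1Δ, beside 81.7% to 83.3% of all genes. By direction the shares lay further apart in mbf1Δ, with 7 of 9 higher beside 42.7%, and less so in gcn4Δ, with 4 of 9 beside 40.7%. These shares were not tested. The MMS and untreated libraries of a strain did not overlap for any member except SKI3 in wild type and SKI3 and HBS1 in gcn4Δ. Over all genes they did not overlap for 83.9% in wild type, 82.6% in gcn2Δ, 88.3% in gcn4Δ and 80.2% in mbf1Δ. The changes were small for most members: the median absolute log2 change was 0.31 over the 9 and 0.80 over all genes in wild type. All levels are TMM-scaled CPM and so relative to the other RNA of the library: a change in all RNA per cell cannot be told apart from none.

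**Figure D1:**
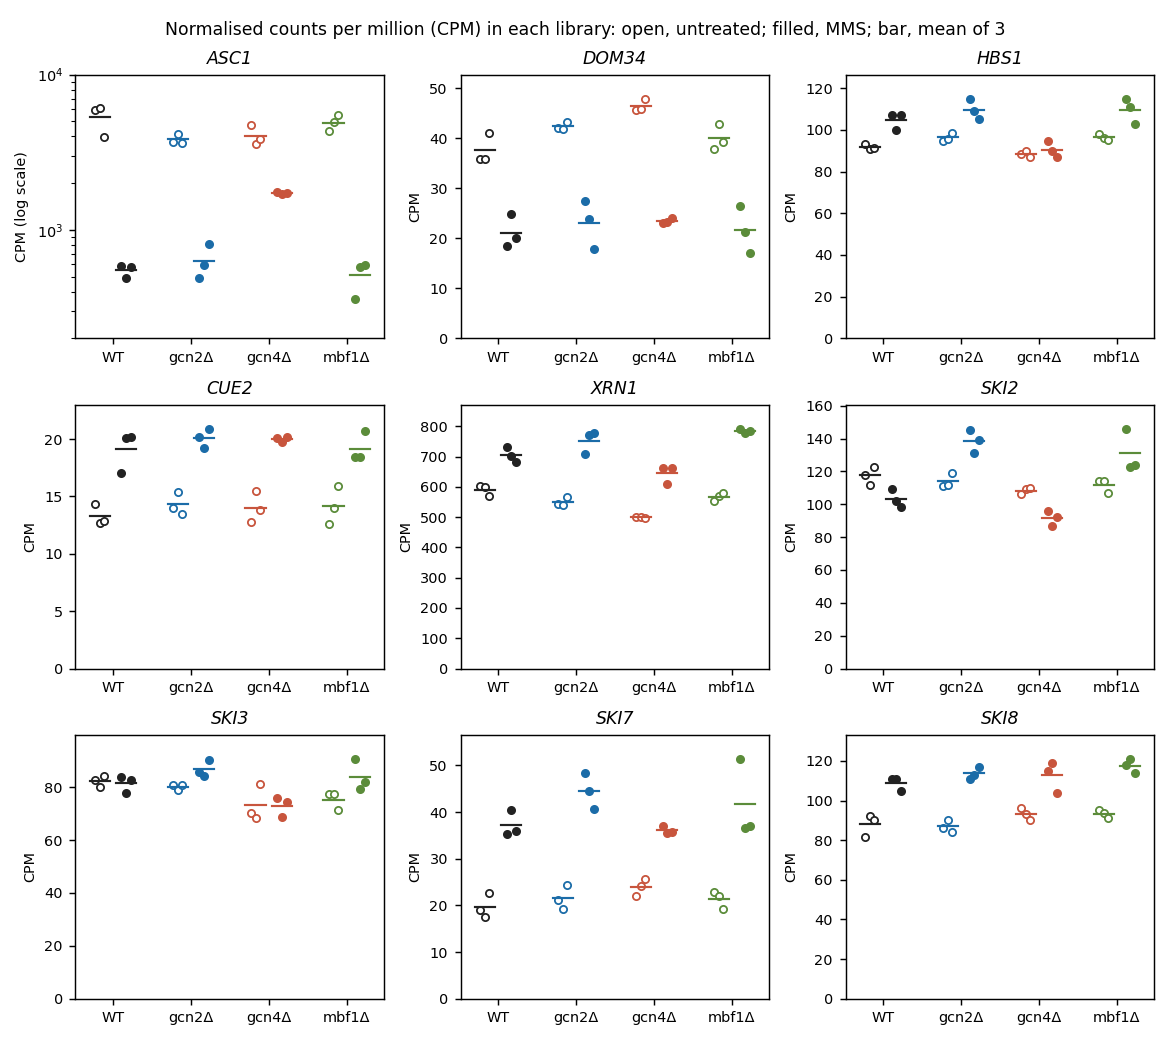
Normalised counts (CPM) of the 9 genes in each of the 24 libraries, by strain, with untreated libraries open, MMS libraries filled and the mean of 3 as a bar; the ASC1 axis is logarithmic. ASC1 and DOM34 were lower and CUE2, XRN1, SKI7 and SKI8 higher in every MMS library than in every untreated library of the same strain.

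ASC1 had the largest change of the 9 in each of the 4 strains after TMM scaling; on the TPM scale this did not hold in gcn4Δ, where ASC1 was at -0.57 and SKI7 at 1.11 on the log2 scale. In untreated wild type cells it was at 5930, 6090 and 3980 CPM and after MMS at 586, 492 and 574. In mbf1Δ it went from 4330, 4940 and 5450 to 358, 580 and 593, and in gcn2Δ from 3680, 4120 and 3650 to 491, 591 and 807. In gcn4Δ it started at 4710, 3550 and 3820 and ended at 1740, 1700 and 1720. The MMS libraries of gcn4Δ lay between all untreated libraries and the MMS libraries of the other 3 strains, with no overlap on either side.

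The fall of ASC1 was 9.69-fold in wild type (log2 change -3.28, SE 0.20, edgeR adjusted p = 6.81e-13) and 9.62-fold in mbf1Δ (-3.27, SE 0.20). It was 6.06-fold in gcn2Δ (-2.60, SE 0.20) and 2.35-fold in gcn4Δ (-1.23, SE 0.19, edgeR adjusted p = 2.85e-06). The response of gcn4Δ differed from that of wild type by 2.05 on the log2 scale (SE 0.27, edgeR adjusted p = 1.94e-06) and ran from 1.94 to 2.22 over all alternative settings. It also differed from gcn2Δ by 1.37 (edgeR adjusted p = 5.36e-04) and from mbf1Δ, whose response was lower by 2.03 (edgeR adjusted p = 3.54e-06). The gcn2Δ response exceeded the wild type response by 0.68 (95% interval 0.13 to 1.22, edgeR adjusted p = 0.0484). That call was lost without any 1 of 9 of the 12 libraries in it (0.49 to 0.74, edgeR adjusted p 0.0534 to 0.133), that is, all but untreated wild type replicate 3 and gcn2Δ MMS replicates 1 and 2. Without untreated wild type replicate 3 the difference was 0.85 (edgeR adjusted p = 0.0116). The mbf1Δ response differed from that of wild type by 0.01, with an interval from -0.53 to 0.56.

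In untreated cells ASC1 was not called in any deletion strain, but this rests on untreated wild type replicate 3, whose 3980 CPM overlapped the mutants. With that library ASC1 was at -0.48 in gcn2Δ (edgeR adjusted p = 0.134) and -0.40 in gcn4Δ (0.123) against wild type on the log2 scale; on the TPM scale these were -0.17 and 0.05. Without it the values were -0.66 (edgeR adjusted p = 0.0227) and -0.58 (0.0234). For mbf1Δ, ASC1 was at -0.12 with that library (edgeR adjusted p = 0.999) and -0.29 without it (0.544), not called either way. ASC1 moved with the share of counts from the ribosomal RNA locus within some groups. The library with 10.6% had the lowest untreated wild type ASC1, the mbf1Δ MMS library with 8.85% had 358 CPM against 580 and 593 at 17.3% and 17.7%, and the gcn2Δ MMS library with 14.7% had 807 against 491 and 591 at 11.7% and 12.3%. In wild type after MMS the library with the highest share, 16.2%, had the lowest ASC1, 492. The part of this share in the ASC1 results was not tested.

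Asc1 is a core component of the small ribosomal subunit, and ASC1 was set beside the 137 cytosolic ribosomal protein genes. Their median log2 change was -3.14 in wild type, -2.82 in gcn2Δ, -2.18 in gcn4Δ and -3.20 in mbf1Δ. In wild type the change of ASC1 lay within the middle of them, below 82 and above 55. For the difference between the gcn4Δ and wild type responses, the ribosomal protein median was 1.01 and all 137 were below the 2.05 of ASC1. In untreated gcn2Δ and gcn4Δ cells, where their median was 0.15 above wild type, all 137 were above ASC1. Within single libraries, which removes the scaling, ASC1 was 1.77 to 2.54 log2 units above the ribosomal protein median in untreated wild type cells and 2.06 to 2.36 after MMS. In gcn4Δ these distances were 1.63 to 1.95 and 2.72 to 2.81, with no overlap. The intron of ASC1 (chromosome XIII, 499879 to 500151) holds the snoRNA gene SNR24. The deposited length of 1360 bases equals the 960 coding bases plus 400, and so leaves no room for that intron.

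Of the rescue pair, DOM34 fell and HBS1 did not. DOM34 was at 35.9, 35.9 and 41 CPM in untreated wild type libraries and at 18.5, 24.8 and 20.1 after MMS. In gcn4Δ it went from 45.6, 45.9 and 47.9 to 23.1, 23.3 and 24.1. The untreated and MMS libraries did not overlap in any strain. The fall was 1.77-fold in wild type (log2 change -0.83, SE 0.14, edgeR adjusted p = 1.15e-05), 1.83-fold in gcn2Δ, 1.98-fold in gcn4Δ and 1.83-fold in mbf1Δ. No deletion was found to alter it: the differences from wild type were -0.05, -0.16 and -0.05, within intervals that together reach from -0.55 to 0.36. On the TPM scale the fall was -0.40 in wild type and passed the threshold in gcn2Δ alone (-0.45, limma adjusted p = 0.0423).

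HBS1 was at 93.4, 90.7 and 91.4 CPM in untreated wild type libraries and at 107, 99.7 and 107 after MMS. This rise of 0.19 on the log2 scale (SE 0.05, edgeR adjusted p = 0.00236) was matched by 0.19 in gcn2Δ and 0.18 in mbf1Δ. In gcn4Δ it was 0.03 and not called (interval -0.07 to 0.14), with libraries that overlapped, and 0.63 on the TPM scale. The difference between the gcn4Δ and wild type responses of HBS1, -0.16, was not called either (edgeR adjusted p = 0.104).

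The ratio of the DOM34 and HBS1 transcripts does not depend on the library total, but in TPM it depends on lengths that Salmon estimated for each library. Over the strains, the mean estimated length was 873 bases untreated and 963 after MMS for DOM34, and 1996 and 2017 for HBS1. The deposited lengths were 1561 bases for DOM34 and 2236 for HBS1, so the level of the ratio also rests on these estimates. In CPM, without lengths, wild type means went from 37.6 to 21.1 for DOM34 and from 91.8 to 105 for HBS1. The part of the lengths in the ratio was not tested. On the TPM scale the ratio was 0.897, 0.969 and 1.05 in untreated wild type libraries and 0.363, 0.509 and 0.394 after MMS. In gcn4Δ it went from 1.12 to 1.16 down to 0.513 to 0.561. On the TPM scale the pair thus went from about equal abundance to a clear excess of HBS1, by a mean of 2.27-fold over the 4 strains. In each strain all MMS libraries were below all untreated ones, and an exact two-sided permutation test that relabels libraries within strains gave p = 1.25e-05, the smallest that its 160000 relabelings allow (adjusted over 4 ratios, p = 1.67e-05).

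**Figure D2:**
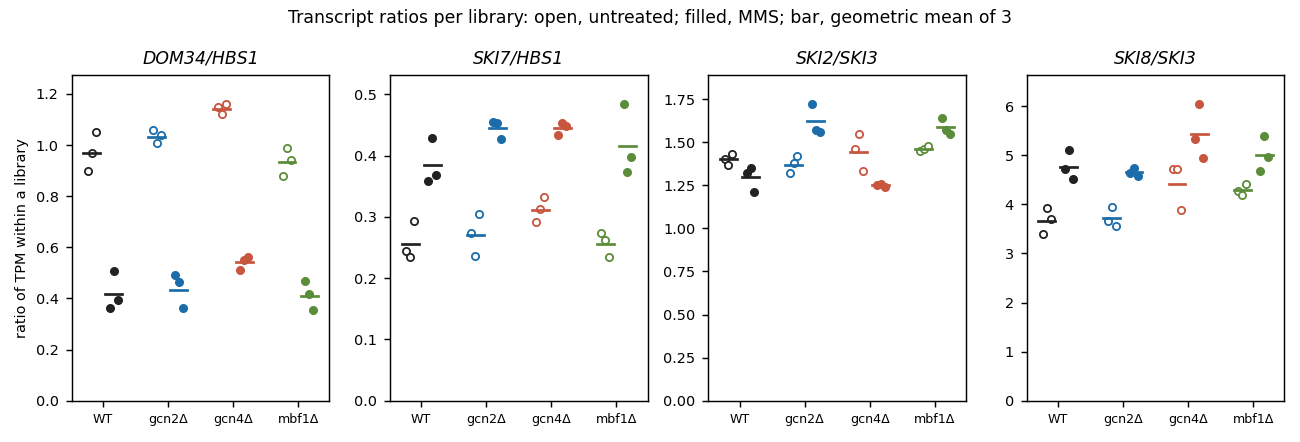
Ratios of TPM values within each library for 4 pairs of genes, with untreated libraries open, MMS libraries filled and the geometric mean of 3 as a bar. DOM34/HBS1 fell and SKI7/HBS1 and SKI8/SKI3 rose in all 4 strains, while SKI2/SKI3 was lower after MMS in wild type and gcn4Δ and higher in gcn2Δ and mbf1Δ.

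The nucleases rose. CUE2, the endonuclease of no-go decay, was at 14.3, 12.7 and 12.9 CPM in untreated wild type libraries and at 17, 20.1 and 20.2 after MMS. Its rise was 1.44-fold in wild type (log2 change 0.53, SE 0.10, edgeR adjusted p = 4.73e-05), 1.41-fold in gcn2Δ, 1.42-fold in gcn4Δ and 1.35-fold in mbf1Δ. The untreated and MMS libraries were apart in each strain, and the MMS levels of the 4 strains overlapped. Differences of the responses from wild type lay between -0.10 and -0.02, with the widest interval from -0.39 to 0.19 in mbf1Δ.

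XRN1, the cytoplasmic 5′ to 3′ exonuclease, went from 603, 600 and 569 CPM to 733, 701 and 683 in wild type. In mbf1Δ it went from 553, 569 and 580 to 792, 778 and 784, and in gcn2Δ from 544, 539 and 568 to 709, 771 and 779. The MMS libraries of mbf1Δ were above all MMS libraries of wild type and gcn4Δ. The rise was 1.2-fold in wild type (log2 change 0.26, SE 0.06, edgeR adjusted p = 2.07e-04), 1.37-fold in gcn2Δ, 1.29-fold in gcn4Δ and 1.38-fold in mbf1Δ. The excess over wild type was 0.20 in gcn2Δ (interval 0.03 to 0.36, edgeR adjusted p = 0.0559) and 0.21 in mbf1Δ (0.05 to 0.37, edgeR adjusted p = 0.0538). Neither passed the threshold, but DESeq2 on the same counts gave 0.21 with adjusted p = 0.00383 and 0.21 with adjusted p = 0.00745. Both also passed in edgeR without untreated wild type replicate 3, at 0.22 (adjusted p = 0.0415) and 0.24 (0.0452). Most of the alternative settings called neither. Over all of them the differences ran from 0.17 to 0.27 in gcn2Δ and from 0.19 to 0.33 in mbf1Δ. The adjusted p of the test in each setting reached 0.371 and 0.131. The authors' deposited table, made with DESeq2, listed XRN1 at 0.21 for both strains, with adjusted p of 0.00488 and 0.00469, and at 0.17 for gcn4Δ (0.0268).

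In untreated cells XRN1 was the one member called in gcn4Δ, where 19.3% of all genes were called. Its 499, 500 and 498 CPM lay below the 569 to 603 of wild type, a difference of -0.24 on the log2 scale (SE 0.06, edgeR adjusted p = 0.0044) that turned to 0.15 (adjusted p = 0.162) on the TPM scale. SKI3, at -0.17 there (edgeR adjusted p = 0.0683), was called without untreated gcn4Δ replicate 3 (-0.25, 0.0175) and by DESeq2 (-0.19, 0.0299), and its value lay above 0 on the TPM scale. SKI7 was called as higher there without untreated wild type replicate 3 (0.39, edgeR adjusted p = 0.0453). None of the 9 was called in untreated gcn2Δ (beside 0.429% of all genes) or untreated mbf1Δ (beside 0.155%) with edgeR. At an unadjusted p under 0.05 there were 1 in gcn2Δ, ASC1, and 0 in mbf1Δ. DESeq2 called 0 in both, and limma on log2(TPM + 1) called 3 in gcn2Δ and 0 in mbf1Δ.

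SKI7, which bridges the Ski complex to the exosome, rose the most. It was at 19.1, 17.5 and 22.7 CPM in untreated wild type libraries and at 35.4, 40.5 and 36 after MMS. In gcn2Δ it went from 21.2, 19.2 and 24.4 to 48.4, 44.6 and 40.7, and in gcn4Δ from 22, 24.1 and 25.6 to 37, 35.6 and 35.7. In mbf1Δ the MMS libraries were spread, at 51.4, 36.5 and 37.1. The gcn2Δ MMS libraries were all above those of wild type and gcn4Δ in CPM, narrowly so for wild type (40.7 against 40.5). On the TPM scale gcn2Δ MMS replicate 3, at 30.3, was below the gcn4Δ MMS libraries, at 33.7, 32.6 and 32.

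The rise of SKI7 was 1.88-fold in wild type (log2 change 0.91, SE 0.13, edgeR adjusted p = 8.89e-07), 2.05-fold in gcn2Δ, 1.51-fold in gcn4Δ and 1.96-fold in mbf1Δ. None of the 3 differences from wild type was called. The gcn4Δ response was below that of gcn2Δ by -0.44 (SE 0.17, edgeR adjusted p = 0.0476), a call lost without any 1 of 9 of the 12 libraries in it (-0.36 to -0.44, edgeR adjusted p 0.0771 to 0.138), all but replicate 3 of gcn2Δ in either state and untreated gcn4Δ replicate 1. It was also lost with RLE size factors (adjusted p = 0.0529), without the ribosomal RNA locus genes (0.0575), with the effective length offset (0.0884) and on the TPM scale (0.514). Against its relative HBS1 within a library, SKI7 rose from 0.234 to 0.293 of the HBS1 level in untreated wild type cells to 0.359 to 0.429 after MMS. Over the 4 strains this ratio rose by a mean of 1.55-fold, with all libraries apart in each strain (exact two-sided permutation within strains, p = 1.25e-05, adjusted over 4 ratios 1.67e-05).

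SKI2, the helicase, was the member whose direction differed between strains after TMM scaling, whereas on the TPM scale it was above 0 in all 4. In wild type it was at 118, 112 and 123 CPM in untreated libraries and at 109, 102 and 98.5 after MMS, and in gcn4Δ at 106, 109 and 110 and then 95.9, 87 and 92.3. In gcn2Δ it went the other way, from 111, 112 and 119 to 145, 131 and 139, and in mbf1Δ from 114, 114 and 107 to 146, 123 and 124. The MMS libraries of gcn2Δ and mbf1Δ were above all the libraries of the other 6 groups, narrowly so in mbf1Δ, where the lowest rounds to the same 123 as the highest of the rest. The 4 untreated groups overlapped.

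**Figure D3:**
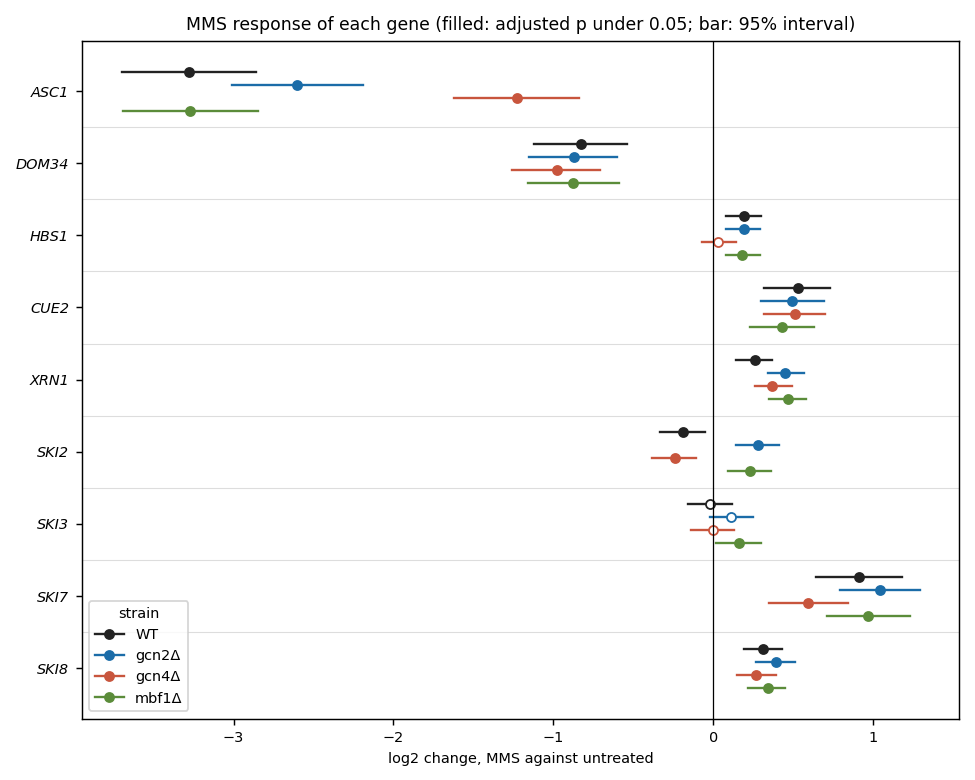
The log2 change after MMS of each gene in each strain, with its 95% interval; filled points passed an adjusted p under 0.05 in edgeR. SKI2 lies below 0 in wild type and gcn4Δ and above 0 in gcn2Δ and mbf1Δ after TMM scaling, whereas on the TPM scale the wild type and gcn4Δ values were above 0 (0.36 and 0.35).

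On the log2 scale SKI2 changed by -0.19 in wild type (SE 0.07, edgeR adjusted p = 0.0119) and -0.24 in gcn4Δ (SE 0.07, edgeR adjusted p = 0.00166), both of which became rises of 0.36 and 0.35 on the TPM scale. It rose by 0.28 in gcn2Δ (edgeR adjusted p = 4.59e-04) and by 0.23 in mbf1Δ (edgeR adjusted p = 0.00308). The wild type call was lost without untreated replicate 3 (-0.16, edgeR adjusted p = 0.0579) or MMS replicate 3 (-0.16, adjusted p = 0.056). On the TPM scale, which also divides by lengths that Salmon estimated for each library, the median change of all genes was higher by 0.53 in wild type and gcn2Δ, 0.56 in gcn4Δ and 0.62 in mbf1Δ. The shift of single genes differed from that median, and directions given here are those after TMM scaling.

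The differences between strains in SKI2 hardly depend on that shift. The gcn2Δ response exceeded that of wild type by 0.47 (interval 0.28 to 0.66, edgeR adjusted p = 3.94e-04) and the mbf1Δ response by 0.42 (0.22 to 0.61, edgeR adjusted p = 0.00225). The gcn4Δ response did not differ detectably from wild type (-0.05, interval -0.25 to 0.14). It was below that of gcn2Δ by 0.52 (edgeR adjusted p = 2.33e-04), and the mbf1Δ response was above that of gcn4Δ by 0.47 (edgeR adjusted p = 3.97e-04). The gcn2Δ and mbf1Δ responses differed by -0.05 (interval -0.24 to 0.14). The authors' deposited table listed SKI2 at 0.47 for gcn2Δ (adjusted p = 1.08e-07), 0.39 for mbf1Δ (1.47e-05) and 0.01 for gcn4Δ. On the TPM scale the sizes were alike, 0.47 in gcn2Δ and 0.52 in mbf1Δ, but were not called (limma adjusted p = 0.111 and 0.104). The same held for gcn4Δ against gcn2Δ (-0.48, 0.128) and mbf1Δ against gcn4Δ (0.52, 0.0703).

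SKI3, the scaffold, moved less than SKI2 after TMM scaling, with the same groups, MMS-treated gcn2Δ and then mbf1Δ, at the top (r = 0.78 between both genes over the 8 group means, as a description). It was at 82.9, 80.1 and 84.3 CPM in untreated wild type libraries and at 83.7, 77.9 and 82.9 after MMS, which overlapped. Its log2 change of -0.02 in wild type and -0.00 in gcn4Δ was not called after TMM scaling and was 0.46 and 0.55 on the TPM scale (limma adjusted p = 0.00381 and 8.88e-04). It was 0.11 in gcn2Δ (edgeR adjusted p = 0.111) and 0.16 in mbf1Δ (0.0305). In mbf1Δ the call was lost without untreated replicate 3 (0.12, adjusted p = 0.137) or MMS replicate 1 (0.10, 0.169). On the TPM scale the changes were 0.59 in gcn2Δ (limma adjusted p = 4.4e-04) and 0.76 in mbf1Δ.

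SKI8, the WD-repeat subunit, which also acts in meiotic recombination, rose in all 4 strains. It was at 81.6, 92.4 and 90.2 CPM in untreated wild type libraries and at 111, 111 and 105 after MMS. The rise was 1.24-fold in wild type (log2 change 0.31, SE 0.06, edgeR adjusted p = 4.08e-05), 1.31-fold in gcn2Δ, 1.21-fold in gcn4Δ and 1.26-fold in mbf1Δ. Its differences from the wild type response lay between -0.04 and 0.08, with intervals from -0.20 to 0.25.

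Ratios of TPM within a library, which do not depend on the library total but do depend on the estimated lengths, showed the same split. SKI8 over SKI3 went from 3.39, 3.93 and 3.7 to 4.71, 5.1 and 4.51 in wild type and rose by a mean of 1.23-fold over the strains, with libraries apart in each (exact two-sided permutation within strains, p = 1.25e-05, adjusted over 4 ratios 1.67e-05). SKI2 over SKI3 was 1.4, 1.37 and 1.43 in untreated wild type cells and 1.32, 1.35 and 1.21 after MMS. In gcn2Δ it rose from 1.32, 1.38 and 1.42 to 1.72, 1.57 and 1.56. All MMS libraries were below the untreated ones in wild type and gcn4Δ and above them in gcn2Δ and mbf1Δ. The mean over strains was therefore 0.01 on the log2 scale (exact permutation p = 0.873), with -0.11 in wild type, -0.21 in gcn4Δ, 0.24 in gcn2Δ and 0.12 in mbf1Δ.

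Counted over the members, the difference of the response from wild type was called for 2 of 9 in gcn2Δ (ASC1 and SKI2, beside 35.9% of all genes), 1 in gcn4Δ (ASC1, beside 35.2%) and 1 in mbf1Δ (SKI2, beside 24% of all genes). These 3 comparisons share the wild type libraries. Between deletion strains, 3 were called for gcn4Δ against gcn2Δ (ASC1, SKI2 and SKI7, beside 32.7%) and 2 for mbf1Δ against gcn4Δ (ASC1 and SKI2, beside 43.9%). For mbf1Δ against gcn2Δ, edgeR called 0 (beside 6.73% of all genes), 1 was at an unadjusted p under 0.05 (ASC1, -0.67, interval -1.21 to -0.12), DESeq2 called 0 and limma on TPM 1. The share of members called was below that of all genes in 5 of these 6 comparisons and close to it in the other (33.3% against 32.7%).

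**Figure D4:**
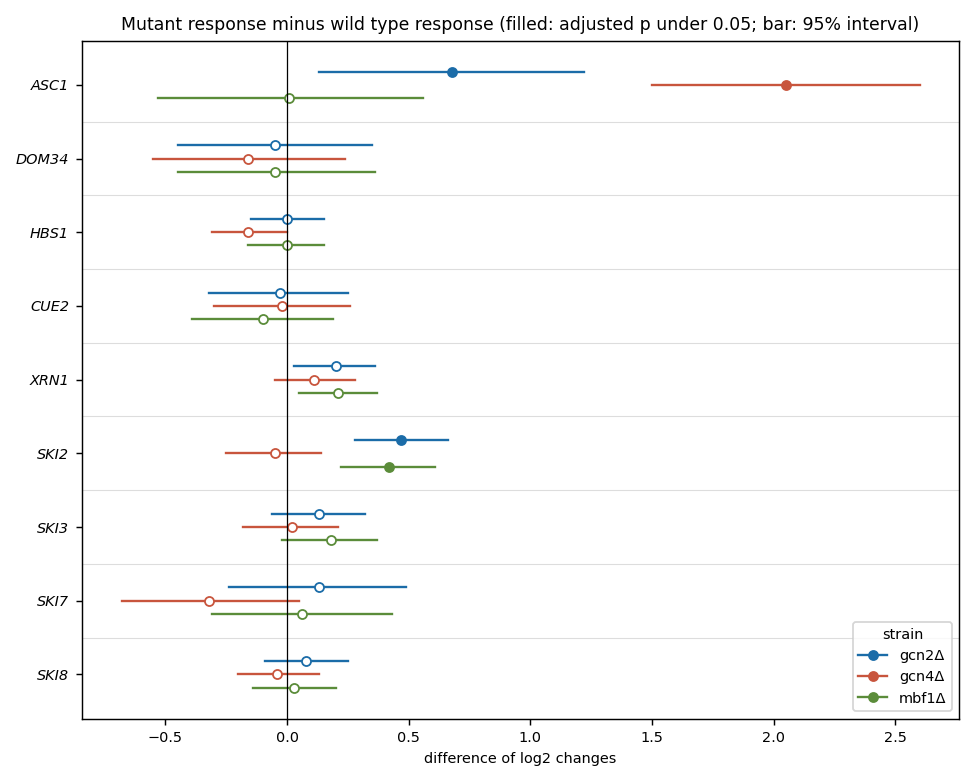
The MMS response of each deletion strain minus that of wild type, as a difference of log2 changes with its 95% interval; filled points passed an adjusted p under 0.05 in edgeR. ASC1 stands out in gcn4Δ at 2.05, and SKI2 lies at 0.47 in gcn2Δ and 0.42 in mbf1Δ but at -0.05 in gcn4Δ.

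The genes with the most similar pattern to each member were found by Pearson correlation of mean log2 CPM over the 8 groups, a description with 8 points that share the MMS contrast. For ASC1 they were ESF2, RPL2B and RPL3 (each r = 0.998), for DOM34 RTP1 (0.998), FCF1 and SAD1 (each 0.997). CUE2 was closest to SIN4 (0.998), XRN1 to RPN1 (0.999), SKI7 to YEL1 and APC4 (each 0.998) and SKI8 to FMO1 (0.995). SKI2 was closest to DUG2 (0.987), HBS1 to TAO3 (0.974) and SKI3 to MMS21 (0.947).

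Other mRNA decay genes were counted in the same way, to be read beside the 42% of all genes that rose and the 41.2% that fell in wild type; no list was tested against the 9 or against all genes. The list labelled Ski-associated and cytoplasmic exosome held 11 genes. Of these, 10, all exosome subunit genes, fell and 1 rose in wild type, with a median log2 change of -0.90 beside 0.02 over all genes. On the TPM scale 5 fell, 1 rose and the median was -0.29. The one that rose was SKA1, whose product adapts the Ski complex to mRNA regions free of ribosomes, at 1.66 (edgeR adjusted p = 5.64e-15). Its rise was smaller in gcn2Δ (by 0.81 on the log2 scale, edgeR adjusted p = 4.54e-06), gcn4Δ (by 0.45, 0.0029) and mbf1Δ (by 0.50, 0.00245). On the TPM scale the last 2 were not called (-0.44, limma adjusted p = 0.0746, and -0.42, 0.116). DIS3, the catalytic exosome subunit, was at -1.14 in wild type and -0.65 in gcn2Δ, a difference of 0.50 (edgeR adjusted p = 6.61e-05). SKI6, an exosome core subunit named for the same superkiller phenotype as the Ski genes, was at -0.82 in wild type and -0.34 in gcn4Δ, a difference of 0.48 (edgeR adjusted p = 7.39e-05) that was 0.49 but not called on the TPM scale (limma adjusted p = 0.056).

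**Figure D5:**
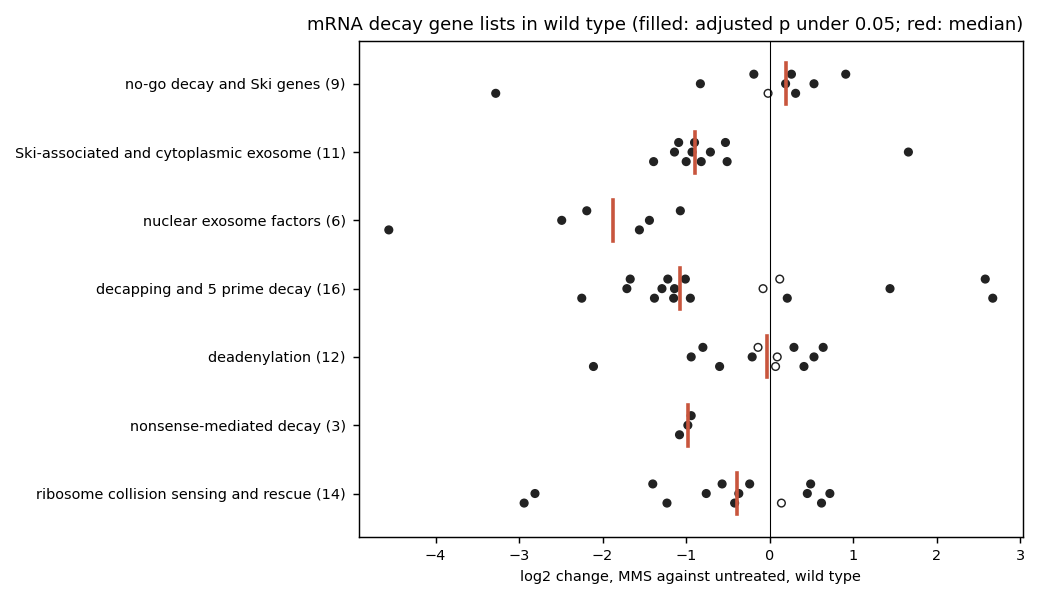
The log2 change after MMS in wild type of the 9 genes and of the genes of 6 other mRNA decay lists, 1 point per gene, filled at an adjusted p under 0.05 in edgeR, with the median in red. After TMM scaling the 9 genes have a median of 0.19 and the list labelled Ski-associated and cytoplasmic exosome one of -0.90. The list labelled nuclear exosome factors, which also holds RAT1 and RAI1, has one of -1.88. On the TPM scale the last 2 were -0.29 and -1.24.

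The list of nuclear decay genes held exosome factors and also RAT1 and RAI1, which are not exosome factors. All 6 genes fell in wild type (median -1.88), led by MTR4, the nuclear relative of SKI2, at -4.56 (edgeR adjusted p = 1.23e-21). All 6 fell on the TPM scale too. RAT1, the nuclear relative of XRN1, was among them, and its difference from the wild type response was 0.79 in gcn2Δ (edgeR adjusted p = 8.33e-09) and 0.60 in mbf1Δ (1.18e-06). Of 16 decapping and 5′ decay genes, 4 rose and 10 fell in wild type (6 and 9 on the TPM scale). The scavenger decapping enzyme gene DCS1 rose by 2.67 on the log2 scale (edgeR adjusted p = 1.82e-19), and LSM5, of the Lsm ring, was at -1.38 (1.14e-14). Deadenylation was mixed, with 4 of 12 higher and 5 lower, among them PAN3 at 0.64 and PAB1, the poly-A binding protein gene, at -2.11; on the TPM scale 8 were higher and 2 lower. All 3 nonsense-mediated decay genes fell, NAM7 (Upf1) at -1.08, of which 2 remained called as falls on the TPM scale.

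Of 14 other genes of collision sensing and ribosome rescue, 4 rose, 9 fell and 1 was not called in wild type, with a median of -0.40 (7 higher, 4 lower and a median of 0.14 on the TPM scale). RQC1, of the ribosome quality control complex, rose by 0.72 (edgeR adjusted p = 1.94e-11), and NEW1, an ABC-type ATPase of translation, was at -2.81 (4.07e-21). For SMY2, the response exceeded that of wild type by 0.81 in gcn2Δ (edgeR adjusted p = 1.18e-07) and 0.69 in mbf1Δ (2.97e-06), and for NEW1 by 0.85 in gcn4Δ (1.59e-08). The helicase gene SLH1 was lower by 0.32 in gcn4Δ than in wild type in this comparison (edgeR adjusted p = 0.0128), which was not called on the TPM scale (-0.26, limma adjusted p = 0.46).

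On build R64 the coding sequences lie on chromosome XIII for ASC1 (499456 to 500688, minus strand), XIV for DOM34 (627456 to 628616, plus), XI for HBS1 (597055 to 598890, minus) and CUE2 (271878 to 273209, plus), VII for XRN1 (175527 to 180113, minus) and SKI8 (90054 to 91247, minus), XII for SKI2 (915156 to 919019, minus), XVI for SKI3 (912664 to 916962, plus) and XV for SKI7 (469377 to 471620, minus). ASC1 is the one member with an intron. The quantified models extend beyond the coding sequence and overlap those of neighbouring genes, and no strand marking step is named, so strands are taken as not told apart. Between 2.53% (SKI2) and 13.8% (HBS1) of the 31-base words of each member also occur in a neighbour. No such word occurs elsewhere in the other gene models. Of the 12 neighbours, those with the largest changes and those of HBS1 are given for wild type. RLP7, divergent from DOM34, was at -3.91 on the log2 scale (SE 0.10), RPC82, which overlaps SKI3, at -2.90, and AFG2, which overlaps SKI2, at -1.45 (SE 0.07). DAD2 and MRPL20, on either side of HBS1, were at -1.55 (SE 0.24) and -0.85 (SE 0.11) where HBS1 rose. AFG2 differed in its response from wild type by 0.53 in gcn2Δ (edgeR adjusted p = 1.49e-04), as SKI2 did, but by 0.60 in gcn4Δ (2.69e-05) and 0.18 in mbf1Δ (0.193), unlike SKI2. MGR3, beside ASC1, rose by 1.08 (SE 0.07) where ASC1 fell. The other neighbours lay between -0.83 (MLC2, of SKI3) and 0.61 (UFE1, of SKI7). The part of shared reads in the members' values was not tested.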

How the data were processed

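Poly-A RNA of 24 yeast libraries (8 groups of 3 biological replicates, grouped by title and genotype in the labels) was sequenced as paired reads of 150 bases with a library preparation for which no strand marking is named. Per the submitters' processing notes, the authors used FastQC 0.11.9, fastp, Salmon 1.10.1, DESeq2 1.38.3 and the R64 build. The deposited Salmon files hold an estimated count per gene, the TPM (relative abundance per effective length, made by the authors' Salmon run) and lengths in bases. The authors' deposited comparison tables give, per the file headers, the mean of normalized counts (used as a score), the log2 change and its standard error, and each p-value before and after adjustment. Their values correlated with the interactions fitted here (r = 0.910 for gcn2Δ, 0.767 for mbf1Δ and 0.853 for gcn4Δ). These correlations are over genes tested here, without those at the most extreme log2 changes in the authors' tables. What they compare is not given further in the sources used here. Values of 3 genes were not used here.

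Estimated counts were rounded to whole numbers, filtered with filterByExpr (8 groups, minimum count 10) and scaled by TMM. The fit used edgeR 4.0.16 under R 4.3.3, with 1 coefficient per group, 16 residual degrees of freedom and 1 estimate of the spread over all libraries (biological coefficient of variation 8.49%). The 13 contrasts were tested by the two-sided quasi-likelihood F-test, and p-values were adjusted by Benjamini-Hochberg across every gene tested. A deleted gene was left out of its own contrasts. The fitting code was tested on simulated data. SE and 95% intervals are those the test statistic implies. CPM used TMM-scaled library sizes. Total counts of 13518115 to 28366473 put between 143 (CUE2) and 87992 (ASC1) counts on a member in a library. Ratios used the TPM of 2 genes in a library and an exact permutation of labels within strains.

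The alternatives were DESeq2 1.42.0, RLE size factors, no count filter, limma 3.58.1 on log2(TPM + 1), the 5 ribosomal RNA locus genes left out, only the compared groups, a replicate block, and each library left out. An offset for Salmon's effective lengths was added after these lengths were seen to differ between libraries.

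Named genes are the 9 members, for each member the 3 genes with the highest correlation of group means among genes with a mean count of at least 50, and from each list the gene with the smallest adjusted p in each direction in a response or interaction. RRP40, also picked by that rule, is not described. Neighbours in the genome were named for their overlap, and the values of SKA1, DIS3 and SKI6 in other strains to go with their differences. The members and lists were chosen with earlier results of these data known. Gene coordinates, windows and motif searches used the RefSeq R64 genome. All 9 members matched. The window of 1 member is not reported here. Deposited lengths were the coding length plus 400 bases for 5907 genes.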

Additional observations from a re-analysis of the deposited data

Results flagged for a closer look

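The MMS response of a member differed between strains, by the test of the difference itself, in 9 cases. For ASC1, on the log2 scale, the gcn4Δ response differed from that of wild type by 2.05 (edgeR adjusted p = 1.94e-06) and from that of gcn2Δ by 1.37 (5.36e-04), and the mbf1Δ response from that of gcn4Δ by -2.03 (3.54e-06). The gcn2Δ response of ASC1 differed from that of wild type by 0.68 (edgeR adjusted p = 0.0484). For SKI2 the differences were 0.47 for gcn2Δ against wild type (edgeR adjusted p = 3.94e-04), 0.42 for mbf1Δ against wild type (0.00225), -0.52 for gcn4Δ against gcn2Δ (2.33e-04) and 0.47 for mbf1Δ against gcn4Δ (3.97e-04). For SKI7 the gcn4Δ response differed from that of gcn2Δ by -0.44 (edgeR adjusted p = 0.0476). These comparisons share libraries and are not independent of each other.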

How the results depend on the processing

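Replicate numbers were not used to pair libraries in the main fit. Over 84 pairs of same-numbered libraries from different groups, deviations from the group means had a median correlation of -0.019 (-0.552 to 0.538), with 15 over 0.1. Between the MMS libraries of gcn2Δ and mbf1Δ the correlations were 0.527, -0.195 and 0.538 for replicates 1, 2 and 3. A median over unlike pairs of groups cannot show whether single libraries were handled together. With a replicate block, the members called for gcn2Δ against wild type went from 2 to 1, as ASC1 was at 0.67 (adjusted p = 0.061), and SKI7 in gcn4Δ against gcn2Δ was at -0.45 (0.0533); no other member's call changed. Of 117 member values, 76 kept sign and side of the threshold with limma on log2(TPM + 1), against 110 to 117 under the other settings that keep all libraries. On that scale 7 values with a call on either scale turned sign, counted before rounding. With a call on neither, 17 did so, counted on rounded values and leaving out those that round to 0. Of the 7, SKI2 went to 0.36 in wild type and 0.35 in gcn4Δ, SKI3 to 0.46 and 0.55 in these strains, and, in untreated cells, SKI8 to 0.31 in gcn2Δ and HBS1 to 0.38 and XRN1 to 0.15 in gcn4Δ. DOM34 was then at -0.40 in wild type (adjusted p = 0.0652), -0.42 in gcn4Δ (0.0542) and -0.30 in mbf1Δ (0.157). On TPM, 71.3% of all calls in wild type were higher against 50.5% after TMM scaling (72.7% against 50.6% in gcn2Δ, 72.5% against 48.9% in gcn4Δ, 74.9% against 51.6% in mbf1Δ). The like shares were 73.4% against 53.3% for the gcn4Δ response against wild type, 84.7% against 55.9% for gcn4Δ against gcn2Δ, 29.5% against 47.9% for mbf1Δ against gcn4Δ, and, untreated, 99.1% against 28% for gcn2Δ, 98.2% against 47.6% for gcn4Δ and 46.2% against 11.1% for mbf1Δ (23.5% with DESeq2). On TPM the members called were 1 for gcn2Δ and 0 for mbf1Δ against wild type in response, 3 for untreated gcn2Δ, 5 for untreated gcn4Δ, and 1 for each pair of deletion strains. DESeq2 called 2 for the gcn4Δ response and 2 for the mbf1Δ response against wild type. Without the ribosomal RNA locus genes, and with the effective length offset chosen after seeing the data, mbf1Δ against wild type also gave 2. For untreated gcn4Δ, DESeq2, RLE factors, only the compared groups and the offset each gave 2. Leaving out 1 library gave 7 to 8 members called in wild type, 8 to 8 in gcn2Δ, 7 to 7 in gcn4Δ and 8 to 9 in mbf1Δ. For response differences from wild type it gave 1 to 3 for gcn2Δ, 1 to 1 for gcn4Δ and 1 to 2 for mbf1Δ, and for untreated cells 0 to 1, 1 to 3 and 0 to 0. Between deletion strains it gave 2 to 3 for gcn4Δ against gcn2Δ, 0 to 0 for mbf1Δ against gcn2Δ and 2 to 3 for mbf1Δ against gcn4Δ. SKI3 in mbf1Δ lost its call with DESeq2, RLE factors, the compared groups alone and the offset (0.12 to 0.16, adjusted p 0.0578 to 0.104). The cause of these changes was not tested. Over all genes, the TPM scale called 1298 against 2093, 1319 against 2048 and 792 against 1396 for the gcn2Δ, gcn4Δ and mbf1Δ responses against wild type. Between deletion strains it called 956 against 1903 (gcn4Δ and gcn2Δ), 128 against 392 (mbf1Δ and gcn2Δ; 101 with only the compared groups) and 1312 against 2553 (mbf1Δ and gcn4Δ). Untreated gcn2Δ gave 25 after TMM scaling, 241 with DESeq2, 2863 on TPM, 12 with only the compared groups and 76 with the offset; untreated gcn4Δ gave 1123 and 4290 on TPM; untreated mbf1Δ gave 9, 17 with DESeq2 and 5 with only the compared groups. Dropping the count filter changed no member's call. Counting error is largest for CUE2, with 143 counts in its shallowest library.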
